A study of Homo sapiens with 2 samples.

Results

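CpG-poor promoters are gene starts whose surrounding DNA holds far fewer CpG dinucleotides than its C and G content would give. Here a promoter was the interval from 500 bp before to 500 bp after the start of the MANE Select transcript, the reference transcript of a protein-coding gene. It was called CpG-poor where the observed over expected CpG ratio of its hg19 sequence was under 0.48, a property of the sequence alone that used no methylation value. Of 18069 such starts on the autosomes, 4755 were CpG-poor, and 3630 of these (76.3%) had at least 3 CpG sites with 5 or more reads in both libraries and are described below. They are compared with 4673 intermediate promoters, with a ratio from 0.48 to under 0.75, and 7943 CpG-rich promoters, with a ratio of 0.75 or more, so that 16246 promoters were measured in all.

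Vertebrate genomes lose CpGs over evolutionary time because a methylated cytosine that deaminates becomes thymine. Promoters of housekeeping genes mostly lie in CpG islands and are kept free of methylation in almost every tissue. CpG-poor promoters, by contrast, serve mainly genes used in a single tissue or cell type, and their few CpGs are commonly methylated where the gene is silent and unmethylated where it is in use. In blood, many genes of granulocytes, monocytes, lymphocytes, red cells and platelets start at promoters of this kind.

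The study compared a pair of human acute myeloid leukemia lines. SKNO-1 is a cell line with the t(8;21) translocation, which makes the RUNX1-RUNX1T1 (AML1-ETO) fusion protein, a transcription factor that keeps the DNA-binding part of RUNX1. SKNO1-siAE is SKNO-1 infected with a lentivirus, pRRLcPPT.hPGK, carrying siAGF1 oligonucleotides that target the fusion mRNA, so it descends from SKNO-1 and also carries the vector. Both were grown in the same medium, and no SKNO-1 culture with an empty vector is among the samples. Methylation was read by MCC-Seq, in which bisulfite-converted DNA is captured with probes and sequenced, so that unmethylated cytosines read as thymine.

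Each line was measured in 1 library, so nothing below separates the fusion from any other difference between the cultures, and each test compares 2 libraries rather than 2 conditions. The deposited tables held 4713346 CpG cytosines for SKNO-1 and 4694016 for SKNO1-siAE, at a mean depth of 17.7 and 17.5 reads. CpG-poor promoters held 56935 distinct shared sites, where each strand of a CpG is its own site. The median site had 19 reads in each library, and the median promoter had 13 sites, with 301 reads in SKNO-1 and 299.5 in SKNO1-siAE. A promoter's methylation level is the mean of the levels of its shared sites, from 0 to 1, and differences are given as SKNO-1 minus SKNO1-siAE. Sites of 1 promoter are not replicates and reads carry no molecular identifiers. SDs over sites and 95% Wilson intervals of pooled reads therefore cover spread along the promoter and counting error only. For some promoters with no methylated read, a limit of 3 counts of the total reads is given instead. Reads of a promoter are summed over its sites, so 1 read that spans several sites is counted at each. Intervals and limits treat these counts as separate reads and are too narrow where sites share reads. RNA was not measured in these libraries, so the lines could not be checked against expressed markers.

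How sparse these promoters are can be read from the sequences. Stretches of 300 bases upstream of the start are shown for 3 blood genes that stand for patterns found: higher in SKNO-1 (GPR183), lower in SKNO-1 (CEACAM1) and high in both libraries (IL22). All are hg19 sequence on the minus strand, written 5′ to 3′ in the direction of transcription, and capitals mark CpGs with a shared site in both libraries. They are GPR183 at chr13:99959654-99959953, CEACAM1 at chr19:43032634-43032933 and IL22 at chr12:68647385-68647684.
GPR183: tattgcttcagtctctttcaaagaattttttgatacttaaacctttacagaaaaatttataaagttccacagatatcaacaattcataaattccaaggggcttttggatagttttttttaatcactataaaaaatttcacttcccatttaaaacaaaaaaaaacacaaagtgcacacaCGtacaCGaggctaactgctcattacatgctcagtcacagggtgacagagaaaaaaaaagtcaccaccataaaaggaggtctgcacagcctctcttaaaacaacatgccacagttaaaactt
CEACAM1: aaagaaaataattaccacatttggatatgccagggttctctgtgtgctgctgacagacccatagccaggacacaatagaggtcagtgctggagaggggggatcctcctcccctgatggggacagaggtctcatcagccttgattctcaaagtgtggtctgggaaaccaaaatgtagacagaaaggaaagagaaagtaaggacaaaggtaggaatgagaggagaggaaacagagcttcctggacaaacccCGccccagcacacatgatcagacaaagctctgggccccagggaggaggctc
IL22: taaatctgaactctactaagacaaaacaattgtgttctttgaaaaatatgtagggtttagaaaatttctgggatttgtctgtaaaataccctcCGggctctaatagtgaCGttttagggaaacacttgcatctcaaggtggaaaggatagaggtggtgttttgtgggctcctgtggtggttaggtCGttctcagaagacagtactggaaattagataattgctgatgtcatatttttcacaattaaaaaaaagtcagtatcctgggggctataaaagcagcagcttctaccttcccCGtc
The GPR183 stretch held 2 CpGs, whose 4 sites averaged 0.757 in SKNO-1 and 0 in SKNO1-siAE. The CEACAM1 stretch held 1 CpG, with 1 shared site at 0 of 52 reads in SKNO-1 and a level of 0.667 over 33 reads in SKNO1-siAE. The 4 CpGs of the IL22 stretch gave 8 sites at 0.780 and 0.823.

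CpG-poor promoters were mostly methylated in both libraries, and more so in SKNO1-siAE. The median level was 0.628 in SKNO-1 (interquartile range 0.290 to 0.854) and 0.746 in SKNO1-siAE (0.465 to 0.903). Medians of intermediate promoters were 0.0364 and 0.0647, and those of CpG-rich promoters 0.00909 and 0.00984. The histogram of levels shows 2 heaps, at the unmethylated and the methylated end, with many promoters between them. In SKNO-1, 731 CpG-poor promoters (20.1%) had a level under 0.2 and 1170 (32.2%) a level of 0.8 or more, against 491 (13.5%) and 1530 (42.1%) in SKNO1-siAE.

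**Figure D1:**
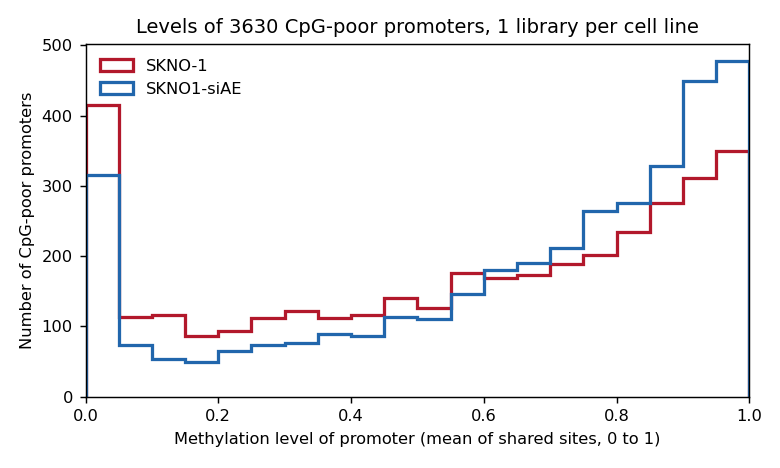
Number of CpG-poor promoters (vertical axis) in steps of methylation level from 0 to 1 (horizontal axis) in SKNO-1 (red) and SKNO1-siAE (blue), 3630 promoters in each. SKNO-1 has more promoters in the lowest step and SKNO1-siAE more in the steps above 0.8, with medians of 0.628 and 0.746.

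The median difference of CpG-poor promoters was -0.0527 (interquartile range -0.183 to 0.0198), beside -0.00404 for intermediate promoters, 0 for CpG-rich promoters and -0.00315 for all promoters. The mean differences lay closer together, at -0.0855, -0.0724, -0.0504 and -0.0645, and 56.3% of intermediate and 70.4% of CpG-rich promoters were under 0.2 in both libraries. The level was lower in SKNO-1 at 2401 CpG-poor promoters, higher at 1142 and equal at 87. By a difference of at least 0.2, the smallest that the study accepts for a differentially methylated region, 218 CpG-poor promoters (6.01%) were higher in SKNO-1 and 856 (23.6%) were lower, and these words are used in that sense below. Over all 16246 promoters the shares were 3.55% higher and 14.6% lower. A difference of at least 0.5 was reached by 49 CpG-poor promoters upward (1.35%) and 174 downward (4.79%), beside 1.2% and 5.79% of all promoters, so at this size the downward share was below that of all promoters. The other 2556 (70.4%) differed by less than 0.2.

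Few promoters crossed the whole scale. From 0.8 or more in SKNO-1 to under 0.2 in SKNO1-siAE there were 19, and 48 went the opposite way. Crossings of only 1 of these limits were more common, but they need no minimum difference and so include differences under 0.2. By this count, 525 promoters stood between 0.2 and 0.8 in SKNO-1 and at 0.8 or more in SKNO1-siAE. Another 289 stood under 0.2 in SKNO-1 and between these values in SKNO1-siAE. In the opposite direction, 194 stood at 0.8 or more in SKNO-1 and between in SKNO1-siAE, and 78 went from between to under 0.2. Levels under 0.2 in both libraries were found at 394 CpG-poor promoters (10.9%, beside 53.1% of all promoters). Levels of 0.8 or more in both were found at 957 (26.4%, beside 14.6% of all promoters).

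Single sites gave the same order of counts. Of the 56935 sites, 3751 (6.59%) were higher in SKNO-1 and 9274 (16.3%) lower by a 2-sided Fisher's exact test on the reads, at a Benjamini-Hochberg adjusted p under 0.05 over all 3168726 shared sites of the tables and a difference of at least 0.2. Over all shared sites these shares were 4.41% and 11.7%. Mean site levels were 0.571 in SKNO-1 and 0.655 in SKNO1-siAE. They were 0.533 and 0.618 upstream of the start (28511 sites), 0.622 and 0.706 in exons (21121 sites) and 0.573 and 0.654 in introns (7294 sites); 9 sites lay past the end of a short transcript, at 0.389 and 0.312.

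Along the promoter, both libraries dipped just before the start. The mean site level of CpG-poor promoters was 0.594 in SKNO-1 and 0.643 in SKNO1-siAE from 500 to 401 bp upstream. It was 0.505 and 0.593 from 200 to 101 bp upstream, and 0.506 and 0.600 in the last 100 bp before the start. By 400 to 500 bp downstream it had reached 0.646 and 0.721. CpG-rich promoters were lowest in the 100 bp just before the start, at 0.117 and 0.153. In CpG-poor promoters SKNO-1 was the lower library in every 100 bp bin, with a difference of -0.0492 in the most distal upstream bin and between -0.0752 and -0.0940 in the others.

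**Figure D2:**
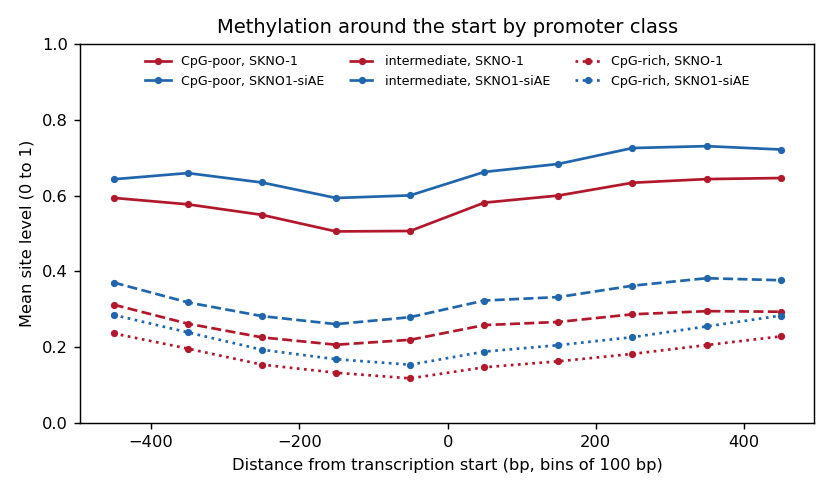
Mean level of shared sites (vertical axis, 0 to 1) in bins of 100 bp by distance from the start (horizontal axis, bp) for CpG-poor (solid), intermediate (dashed) and CpG-rich (dotted) promoters in SKNO-1 (red) and SKNO1-siAE (blue). CpG-poor promoters lie highest throughout, with a dip to 0.505 in SKNO-1 and 0.593 in SKNO1-siAE before the start.

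With no second library of either line, the strands of the same CpGs gave the only repeat measurement within a library. Among 2566 CpG-poor promoters with at least 3 CpGs covered on both strands, the median absolute difference between strands was 0.0487 in SKNO-1 and 0.0473 in SKNO1-siAE. Between the libraries it was 0.105 on the plus strand and 0.106 on the minus strand. An absolute difference of at least 0.2 separated the strands of 1 library at 7.05% and 6.55% of these promoters, and separated the libraries at 29.7% and 31.6%. Strands share a culture, a conversion and a capture, so this measures error within a library and not between cultures.

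Other features of the sequence were counted too. Their median ratio of observed to expected TG and CA dinucleotides, the product of CpG loss, was 1.24, against 1.04 in intermediate and 0.968 in CpG-rich promoters. The TATA box letters TATAAA, on the sense strand from 40 to 20 bp upstream, were present in 354 (9.75%), against 3.81% of all measured promoters and 2.08% of CpG-rich ones. TGTGGT, the core letters that RUNX factors bind, searched on both strands from -500 to 500 bp, was present in 1727 (47.6%), against 31.3% of all measured promoters. The 1727 had a median difference of -0.0533 and the CpG-poor promoters without it -0.0521. GAGGAAGT, letters bound by the myeloid factor PU.1, searched the same way, was present in 291 (8.02%), against 5.98% of all. Those 291 had median levels of 0.493 and 0.611 and a median difference of -0.0260, beside 0.635, 0.753 and -0.0546 for CpG-poor promoters without the letters. No motif of the 3 contains another, and a match says only that the letters are present.

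Genes of blood cells were set out in 6 lists and genes of other tissues in 7. Of 513 listed blood genes with a start, 452 (88.1%) were CpG-poor, and 371 were measured. CpG-poor starts made up 26.3% of all starts and 97.6% of those on the lists of other tissues. The 371 blood promoters had median levels of 0.544 in SKNO-1 and 0.638 in SKNO1-siAE, with a median difference of -0.0216. Of these, 48 (12.9%) were higher in SKNO-1 and 94 (25.3%) lower, beside 6.01% and 23.6% of all CpG-poor promoters and 3.55% and 14.6% of all promoters. The 457 measured promoters of the other tissues counted 26 higher (5.69%) and 137 lower (30.0%). Lists were not tested against each other.

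Granule and secreted proteins of neutrophils and eosinophils were the blood list with a median difference above 0, at 0.0296. Of its 37 measured promoters, 10 were higher in SKNO-1 (27.0%), 9 lower (24.3%) and 18 differed by less, beside 6.01% and 23.6% of all CpG-poor promoters. Those background shares apply to the counts of every other list. By mean site level the largest higher difference was that of PRG2, the eosinophil major basic protein, at chr11:57157623-57158623. Its 12 sites averaged 0.655 ± 0.403 (SD over sites) in SKNO-1 and 0.0141 ± 0.0337 in SKNO1-siAE. Its pooled reads gave a smaller gap, 222 of 555 methylated against 14 of 595, and the deepest sites in SKNO-1 were upstream ones. The PRG2 levels were split by place: the 8 intron sites from 368 to 491 bp past the start ran from 0.556 to 1 in SKNO-1 and were all at 0 in SKNO1-siAE, whereas the 4 upstream sites ran from 0 to 0.347 and from 0 to 0.101.

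TCN1, the vitamin B12 binding protein of neutrophil specific granules, had 0.841 in SKNO-1 and 0.221 in SKNO1-siAE over 9 sites, with pooled shares of 0.839 of 311 reads and 0.125 of 288 reads. PADI4, which turns arginine of histones into citrulline, had 0.946 and 0.372 over 15 sites, with pooled shares of 0.954 and 0.299. By Fisher's exact test 7 of the 9 TCN1 sites and 10 of the PADI4 sites were called higher, and no site of either was called lower. The largest lower difference of the list was that of CEACAM1, an adhesion receptor of granulocytes and epithelium, at chr19:43032133-43033133. It had 0.0417 ± 0.118 in SKNO-1 and 0.898 ± 0.145 in SKNO1-siAE over 8 sites, and its pooled reads gave a methylated share of 0.0113 (95% interval 0.00310 to 0.0403) against 0.867 (0.808 to 0.910). All 8 CEACAM1 sites were called lower.

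The other called granule genes follow, with some that were not called, chosen for their roles with values in view. The azurophil granule serine proteases differed in size: PRTN3, proteinase 3, had 0.321 in SKNO-1 and 0 in SKNO1-siAE over 28 sites, CTSG, cathepsin G, 0.499 and 0.205 over 6 sites, and AZU1, azurocidin, 0.0296 and 0 over 13 sites. PRTN3 and CTSG were higher and AZU1 was near 0 in both libraries. The eosinophil ribonucleases RNASE2 and RNASE3 were both higher, at 0.223 against 0 and 0.635 against 0.212. MS4A3, a membrane protein of granulocyte precursors, was higher at 0.309 against 0.00788, and so were HP (haptoglobin, 0.311 and 0 on 4 sites) and OLFM4 (olfactomedin 4, 0.975 and 0.672). EPX, eosinophil peroxidase, was lower at 0.536 against 0.796. Lower too were CLC, the Charcot-Leyden crystal protein (0.121 and 0.644 on 3 sites), CHIT1, a chitinase (0.511 and 0.820), the adhesion genes CEACAM3 (0.303 and 0.587) and CEACAM6 (0.633 and 0.903), and the defensins DEFA4 (0.725 and 0.947) and DEFA1 (0 and 0.490), the last a near-identical copy of DEFA3 and so uncertain. Of secondary granule genes, LTF (lactoferrin) had 0.914 and 0.884 over 68 sites and CAMP (cathelicidin) 0.502 and 0.429 over 11 sites, both within 0.2. MPO, myeloperoxidase, was lower, at 0 against 0.217, on 3 sites with 63 and 42 reads.

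Receptors and signalling proteins of myeloid cells had the lowest median of the blood lists in SKNO-1, 0.301, and 0.437 in SKNO1-siAE, over 112 promoters, and 27 of them were under 0.2 in both libraries. In this list 13 were higher in SKNO-1 (11.6%) and 27 lower (24.1%). CD74, the invariant chain of MHC class II, at chr5:149791973-149792973, had 0.123 ± 0.241 in SKNO-1 and 0.923 ± 0.139 in SKNO1-siAE over 30 sites, 28 of which were called lower. FGR, a Src family kinase of myeloid cells, had 0.172 and 0.935 over 55 sites, 45 of them called lower. The calls thus covered most sites of both promoters, upstream of the start and past it.

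SIGLEC15, a sialic acid binding receptor of macrophages and osteoclasts, had 0.0521 and 0.812 over 8 sites, all on the minus strand, with 118 reads in SKNO-1 and 318 in SKNO1-siAE. FCGRT, the heavy chain of the neonatal Fc receptor, was at 0 in 116 reads of SKNO-1 and at 0.682 in SKNO1-siAE over 12 sites. MEFV, which encodes pyrin, had 0.321 and 0.996 over 12 sites. All of these were lower in SKNO-1. ADGRE1, the human counterpart of the mouse macrophage marker F4/80, was the most strongly higher of the list, at 0.893 against 0.339 over 7 sites, 5 of which were called higher.

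Among myeloid genes named for their roles with values in view, and so not a measure of the list, whose lower members outnumber the higher ones, TREM1 (0.397 and 0.0417), the IgA receptor gene FCAR (0.534 and 0.111), NLRP12 (0.382 and 0.0367), CASP1 (0.582 and 0.113) and CCR2 (0.570 and 0.181) were higher in SKNO-1. ITGAM, the CD11b integrin chain that rises as myeloid cells mature, was lower, at 0.0235 against 0.549 over 17 sites, and so was the scavenger receptor gene CD36, at 0.407 against 0.871 over 7 sites. The lectin gene FCN1 (0.185 and 0.627), TREM2 (0.377 and 0.715), the DNA sensor gene IFI16 (0.00840 and 0.362), CD209 (0.347 and 0.716) and the formyl peptide receptor genes FPR2 (0 and 0.470 on 3 sites) and FPR3 (0.428 and 0.954 on 4 sites) were lower too. SPI1, which encodes PU.1, was at 0 in both libraries over 18 sites with 234 and 249 reads. CSF3R, the G-CSF receptor gene, was at 0.0602 and 0.0174 over 18 sites. TLR4 (0.0701 and 0) and NCF4 (0 and 0) were low in both too.

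T and natural killer cell genes had medians of 0.594 and 0.741 over 85 promoters, with 8 higher in SKNO-1 (9.41%) and 26 lower (30.6%). GPR183, a receptor for oxysterols that guides lymphocytes within lymphoid tissue, at chr13:99959153-99960153, was the most different of all blood genes upward. It had 0.864 ± 0.197 in SKNO-1 and 0 in SKNO1-siAE over 8 sites. Its pooled reads gave a methylated share of 0.921 (95% interval 0.883 to 0.947) in SKNO-1 against 0 of 475 reads in SKNO1-siAE. Counted as separate, the 475 allow a level of up to 0.00632, but no single site had more than 112 reads there. All 8 GPR183 sites were called higher, and the lowest of them in SKNO-1 was at 0.438. SLAMF7, a receptor of natural killer and plasma cells, had 0.835 and 0.127 on 5 sites of the minus strand, and TNFRSF4, the costimulatory receptor OX40, 0.756 and 0.110 over 32 sites.

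In the opposite direction stood CD96, an adhesion receptor of T and natural killer cells, at chr3:111260544-111261544. Its 16 sites, all upstream of the start, averaged 0.00174 ± 0.00694 in SKNO-1 and 0.848 ± 0.170 in SKNO1-siAE, with 1 of 767 reads methylated in SKNO-1 and 608 of 716 in SKNO1-siAE. CD69, an early activation receptor, had 0 and 0.686 over 6 sites. SLAMF1 had 0.279 and 0.910 over 24 sites, 18 of them called lower. CTLA4, an inhibitory receptor of T cells, had 0.217 and 0.774 over 6 sites, and its difference lay on 1 side of the start. Its 4 upstream sites, on the minus strand, ran from 0 to 0.0588 in SKNO-1 and from 0.588 to 0.971 in SKNO1-siAE, whereas the 2 exon sites, on the plus strand, had 0.286 and 0.955 against 0.167 and 1.

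Several T cell genes with intermediate levels in SKNO-1, picked with values in view, were lower there: CD7 had 0.471 and 0.964, CD28 0.537 and 0.916, IL2RA 0.491 and 0.907 and GZMB, granzyme B, 0.297 and 0.736. Of the CD3 chains, CD3E was within 0.2, at 0.684 and 0.828. B cell genes had medians of 0.499 and 0.585 over 27 promoters, with 3 higher (11.1%) and 9 lower (33.3%). CIITA, the master regulator of MHC class II genes, was lower at 0 against 0.453 over 19 sites, and MS4A1, which encodes CD20, was higher at 0.997 against 0.585 over 6 sites. MZB1, a chaperone of plasma cells that stands on no list, was among the most different CpG-poor promoters, at 0.843 in SKNO-1 and 0 in SKNO1-siAE over 11 sites, with 236 and 111 reads.

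Red cell, platelet and mast cell genes were highly methylated in both lines, with medians of 0.784 and 0.765 over 45 promoters, and 8 were higher and 8 lower (17.8% each). TPSD1, a mast cell tryptase, had 0.861 and 0.113 over 24 upstream sites, 20 of them called higher. Tryptase genes are near-identical copies, so reads may have been placed on the wrong copy, and this value is uncertain. RHAG, the Rh-associated glycoprotein of red cells, had 0.946 and 0.329 over 10 sites; the 6 RHAG sites from 109 to 184 bp past the start were at 0.898 or more in SKNO-1 and at 0 in SKNO1-siAE, and the 4 beyond them were at 0.714 or more in both, although the last of these, at 1 against 0.714, was also called higher.

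F13A1, the factor XIII chain of platelets and macrophages, had 0.831 and 0.233 over 9 sites, 8 of them on the plus strand. The gap lay at 6 of its 7 intron sites, while its 2 upstream sites had levels of 0.250 and 0.227 in SKNO-1 against 0.300 and 0.545 in SKNO1-siAE. TBXAS1, thromboxane synthase, had 0.674 and 0.0856 over 8 sites. GP6, the platelet collagen receptor, was lower at 0.142 against 0.914 over 25 sites, 20 of them called lower. HBB, the adult beta-globin gene, was lower at 0.0714 against 0.755 over 7 sites. The globin genes beside it, named with values in view, had HBD at 0.333 and 0.624 on 3 sites and HBG2 at 0.0157 and 0.893 on 3 sites; HBG2 has a near-identical copy. KLF1, a red cell transcription factor, was at 0.994 and 1 over 14 sites.

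Cytokines and chemokines had medians of 0.662 and 0.739 over 65 promoters, with 6 higher (9.23%) and 15 lower (23.1%). IL18, an inflammasome cytokine that induces interferon gamma, at chr11:112034317-112035317, had 0.950 ± 0.0682 in SKNO-1 and 0.114 ± 0.145 in SKNO1-siAE over 18 sites, 15 of which were called higher. IFNG itself, named with its value in view, was higher at 0.665 against 0.322 over 14 sites. IL6 was lower at 0.149 against 0.481 over 42 sites. CXCL8 was at 0 in both libraries over 7 sites, with 345 and 139 reads.

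**Figure D3:**
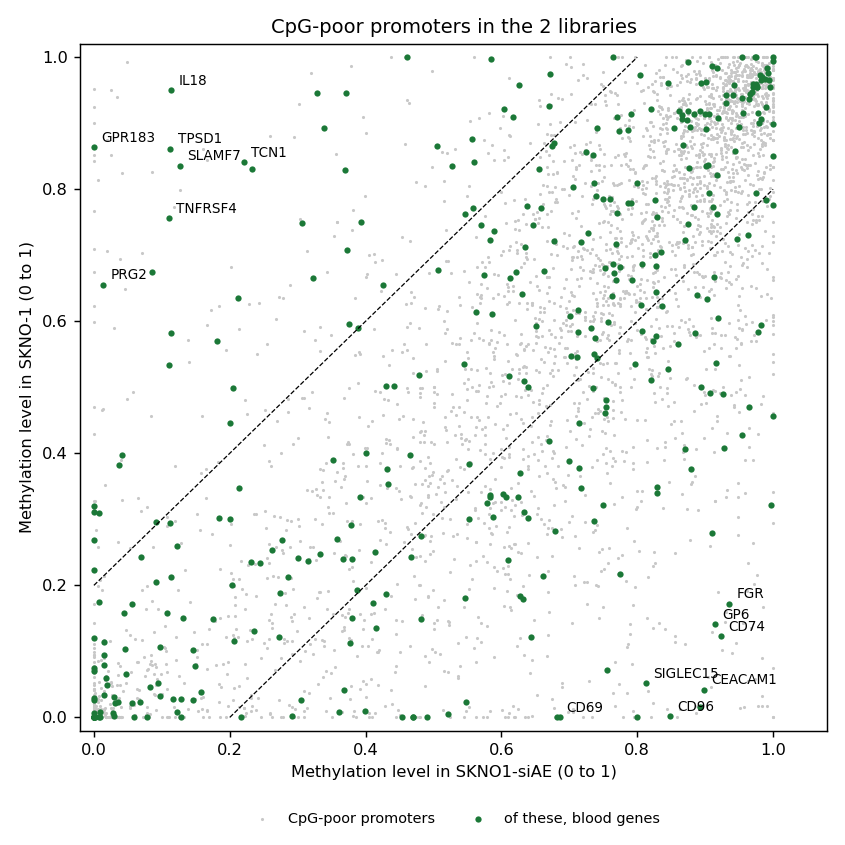
Methylation level of each CpG-poor promoter in SKNO-1 (vertical axis, 0 to 1) against SKNO1-siAE (horizontal axis, 0 to 1), all 3630 in grey and the 371 of blood genes in green, with the most different of these named. Dashed lines mark a difference of 0.2 either way: 48 blood promoters lie above the upper line or on it and 94 below the lower line or on it.

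Blood promoters that stayed low in both lines were led, by reads, by LAIR1, an inhibitory receptor for collagen. Its 28 sites averaged 0.00825 in SKNO-1 and 0.00862 in SKNO1-siAE with 1380 and 1283 reads. NFE2, a transcription factor of red cells and megakaryocytes, had 0.114 and 0.0147, and NLRP3, the inflammasome sensor, 0.0798 and 0.0148. P2RY14, a receptor for UDP-glucose, had 0.0383 and 0.158, CST7, a protease inhibitor of granulocytes and killer cells, 0.121 and 0, and CD48, an adhesion protein of most blood cells, 0.106 and 0.0970. In all 55 blood promoters (14.8%) were under 0.2 in both libraries, beside 10.9% of CpG-poor and 53.1% of all promoters, and 27 of them were on the myeloid receptor list.

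Levels of 0.8 or more in both lines were found at 62 blood promoters (16.7%), beside 26.4% of all CpG-poor promoters. With the most reads among them, IL22, a T cell cytokine, had 0.867 in both libraries over 23 sites with 2106 and 1917 reads. The platelet chemokine genes PF4 (0.947 and 0.969) and PF4V1 (0.976 and 0.993), the neutrophil granule gene PGLYRP1 (0.955 and 0.976), the B cell chemokine receptor gene CXCR5 (0.938 and 0.955) and POU2AF1, a B cell coactivator (0.894 and 0.877), stood there too.

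Lists of other tissues are to be read beside all CpG-poor promoters, of which 6.01% were higher and 23.6% lower. Keratins and keratin-associated proteins, which build hair and epithelium, had medians of 0.461 and 0.663 over 119 promoters, with 4 higher (3.36%) and 44 lower (37.0%). Olfactory receptors had 0.490 and 0.693 over 141 promoters, with 12 higher (8.51%) and 51 lower (36.2%); 219 more CpG-poor olfactory starts had too few shared sites. Plasma proteins and enzymes of liver had 0.711 and 0.775 over 83 promoters, with 2 higher (2.41%) and 14 lower (16.9%). Digestive and gut proteins counted 2 higher and 13 lower of 46, cornified envelope proteins of skin 3 and 10 of 30, beta-defensins 3 and 3 of 20, and taste receptors 0 and 2 of 18. Taste receptors were the most methylated list, with medians of 0.890 and 0.939.

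The most different CpG-poor promoters of all were taken from the 3226 with at least 5 sites and 50 reads in each library, of which 326 stood on a blood list. Upward, GOLPH3L, a Golgi membrane protein, at chr1:150669130-150670130, had 0.950 ± 0.0718 and 0.0254 ± 0.0890 over 24 sites, all of them called higher. TRIP6, an adhesion adaptor with LIM domains, had 0.924 and 0 over 40 sites, and PTX4, a pentraxin, 0.851 and 0 over 32 sites. MROH6 had 0.875 and 0.0191 over 37 sites, and ENSG00000187186, named by its identifier alone, 0.900 and 0 over 12 sites on the minus strand. In SKNO-1 each of these 12 sites had 5 reads, the minimum. GPR183, MZB1 and IL18 completed the 8. Some of these 8 had no methylated read in SKNO1-siAE. Counted as separate, its summed reads allow a level of up to 0.00634 at TRIP6, 0.00444 at PTX4, 0.0330 at ENSG00000187186 and 0.0270 at MZB1. Single sites had only 5 to 10 reads there at ENSG00000187186 and 5 to 18 at MZB1, so these limits are too low.

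Downward, ENSG00000284976 had 0 of 117 reads methylated in SKNO-1 and 98 of 98 in SKNO1-siAE, summed over 9 sites of the plus strand. Each of these sites had 13 reads in SKNO-1 and from 5 to 14 in SKNO1-siAE. ARTN, a ligand of the GDNF family, at chr1:44398973-44399973, had 0.0175 ± 0.0569 and 0.990 ± 0.0329 over 34 sites, all called lower. SV2A, a synaptic vesicle protein, had 0.0166 and 0.978 over 23 sites, DENND2B, an activator of Rab proteins, 0.0323 and 0.983 over 34 sites, and CCDC28B, linked to cilia, 0.0157 and 0.957 over 28 sites. SCARF1 (0.0179 and 0.984 over 8 sites), STAB1 (0.0905 and 0.984 over 39 sites) and EGFL7 (0.0175 and 0.889 over 6 sites) completed the set. Reads summed over sites were few at SCARF1, 56 in SKNO-1 and 60 in SKNO1-siAE, and at EGFL7, 109 and 65. SCARF1 and STAB1 are scavenger receptors and EGFL7 is a secreted endothelial protein, and SCARF1 and EGFL7 were covered on 1 strand.

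By how CpG-poor a promoter was, the share of lower promoters was 24.8% of 125 promoters with a ratio under 0.1, 25.5% of 1088 from 0.1 to under 0.2, 24.7% of 1289 from 0.2 to under 0.3, 19.6% of 731 from 0.3 to under 0.4 and 21.9% of 397 from 0.4 to under 0.48. Higher promoters numbered 8, 83, 76, 34 and 17 in these bands, with a share of 7.63% in the second and 4.28% in the last. A difference of at least 0.5 downward was reached by 6, 46, 51, 34 and 37 promoters in the same order. Just inside the limit lay KLF17 (0.911 and 0.913) and SYT4 (0.660 and 0.552), and just outside it RTP5 (0.716 and 0.870) and ASB5 (0.868 and 0.922).

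The shares of higher and of lower promoters differed with the ratio of the read sums. Of 748 CpG-poor promoters whose log2 ratio of reads in SKNO-1 to SKNO1-siAE was under -0.5, 4.41% were higher and 25.8% lower, against 7.13% and 22.3% of 673 with a ratio over 0.5. The 2209 between them had 6.20% and 23.2%. The mean difference was -0.107 at the low ratios and -0.0709 at the high ones, and 49 of the 748 and 27 of the 673 were lower by at least 0.5. Copy number of the lines was not measured here, and its part in these levels was not tested. CpG-poor starts left out for coverage, 891 with no shared site and 234 with 1 or 2, had a median of 8 CpGs, against 15 in those measured.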

How the data were processed

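Genomic DNA of both lines was bisulfite-converted, captured with Roche NimbleGen SeqCap Epi probes and sequenced. Per the labels and the submitters' processing notes, the authors used cutadapt 1.4.2 and aligned reads to hg19 with BSMAP 2.73, and the study's methods add a Perl script for trimming by quality and length; removal of duplicates is not given in the sources used here. The deposited tables hold counts of methylated and unmethylated reads per CpG cytosine and strand, all with at least 5 reads, which limits precision at single sites. All autosomal positions fell on CG of GRCh37.

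Levels are methylated reads over all reads of a site. Starts came from GENCODE 44 lifted to hg19. Scripts (python 3.11.15; pandas 2.3.3, scipy 1.17.1, numpy 2.4.6) were tested on simulated data. Each line is 1 library, so promoters were described by counts past a difference of 0.2 and sites were tested by 2-sided Fisher's exact tests; a test of pooled reads per promoter was an alternative only. Members and gene lists were chosen with earlier results of these data known, and the lists come from general knowledge. Named genes were, among promoters with 5 sites and 50 reads in each library, the 8 largest differences each way, the 12 largest each way on blood lists, and the 6 blood promoters with the most reads under 0.2 in both and at 0.8 or more in both. Alternatives changed the coverage minimum, pooling of reads or strands, sites per promoter, interval, CpG limit, overlapping starts, read balance, call rule and use of shared sites. Sequences are hg19. Chromosomes X and Y were not used here.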

Additional observations from a re-analysis of the deposited data

How the results depend on the processing

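Over 9 alternatives the median difference ran from -0.0540 to -0.0362, and the median level from 0.619 to 0.647 in SKNO-1 and from 0.735 to 0.758 in SKNO1-siAE. Of the counts, 16 alternative values moved by over 1.5 times, all given here. Requiring 10 sites per promoter left 2348 CpG-poor promoters, with 107 higher and 509 lower in SKNO-1, of which 25 and 55 were blood genes, and 258 under 0.2 in both libraries. Keeping promoters whose read sums differed by at most 25% left 1558, with 87 higher and 353 lower, 21 and 44 of them blood genes, and 191 under 0.2 in both. As shares these were 4.56% and 21.7%, and 5.58% and 22.7%, so with 10 sites the share of higher promoters fell too. An interval from -200 to 200 bp gave the median difference nearest 0 and moved the higher blood promoters to 32, and requiring every 500 bp window to be CpG-poor moved those under 0.2 in both to 282. A difference of 0.5 left 49 higher and 174 lower, 13 and 21 of them blood genes. Bonferroni adjustment over sites left 765 sites higher and 2149 lower. No paired analysis was possible because each line has 1 library, and for the same reason no replicate could be left out. Depth limits single sites, with a median of 19 reads in each library, more than promoters.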

Other observations

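Gene families with several CpG-poor promoters, grouped by symbol after values were seen, did not all lean the same way; over all CpG-poor promoters 6.01% were higher and 23.6% lower. Genes whose symbols start with UGT had 0 higher and 8 lower of 13 measured promoters. They include the UDP glucuronosyltransferases, which conjugate bilirubin, drugs and steroids. Among the UGT genes, UGT1A6 had 0.473 in SKNO-1 and 0.943 in SKNO1-siAE and UGT1A1 0.577 and 0.887, whereas UGT1A7 had 0.948 and 0.944. UGT3A1 (0.955 and 0.904) and UGT3A2 (0.965 and 0.940), on another chromosome, were high in both. CC chemokines counted 1 higher and 9 lower of 21, with CCL16 at 0.376 and 0.879 and CCL5, the higher member, at 0.596 and 0.375. Of 7 CD300 genes, receptors of myeloid cells, 0 were higher and 4 lower, among them CD300A at 0.300 and 0.552 over 54 sites. Keratin-associated proteins counted 3 higher and 30 lower of 72, and many of these are close copies of each other.

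Upward, 3 of 4 tryptases, 2 of 4 interferon alpha genes and 2 of 3 azurophil granule serine proteases were higher and none was lower. Interferon alpha promoters had a median of 3.5 sites and tryptases 60.5 reads in SKNO-1, and both families hold near-identical copies on which reads may be misplaced, so their counts are uncertain. MS4A genes counted 3 higher and 2 lower of 11. Other families held large differences of both signs side by side. Of 9 SLAM family genes 3 were higher and 2 lower, with SLAMF7 and SLAMF1 in opposite directions. Of 7 GIMAP genes, GTPases of lymphocytes, 1 was higher (GIMAP7, 0.865 and 0.504) and 3 lower (GIMAP8, 0.00508 and 0.522, among them). Of 16 S100 calcium-binding protein genes 1 was higher and 1 lower, and both by over 0.5: S100P had 0.852 and 0.0256 over 38 sites, and S100Z 0.00748 and 0.705 over 13 sites. By chromosome, the share of lower promoters was highest on chromosome 21, with 26 of 65 (40.0%), and 12.7% on chromosome 15. Chromosome 15 also had the highest median log2 ratio of reads in SKNO-1 to SKNO1-siAE, 0.654. The ratio was 0.0660 on chromosome 21 and -0.689 on chromosome 18, where 8 of 28 promoters (28.6%) were lower. The part of the reads in these shares was not tested.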
